A study of Mus musculus with 12 samples.

Results

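The 10 genes described here are the epithelial gatekeepers Ovol2, Grhl2, Ehf, Elf3, Esrp1, Esrp2 and Epcam and the EMT transcription factors Zeb2, Snai1 and Snai2. They were chosen by name, through the Ensembl identifiers of the count table, and make up 10 of its 37991 genes. The libraries are bulk RNA-seq of pancreatic islets from male C57BL/6 mice. Tg7 mice carry a transgene that overexpresses miR-7a2 in β-cells only, and their Wt littermates do not carry it. The 4 groups were Wt and Tg7 at 2 weeks of age (2w) and Wt and Tg7 at 12 weeks of age (12w), with 3 libraries each. Each library came from islets pooled from at least 3 animals, so the p-values measure the spread between pools. All cell types of the islet were sequenced together, and in such bulk samples fewer cells of a type and less RNA per cell cannot be told apart.

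Epithelial cells adhere to each other through E-cadherin and tight junctions, and a set of transcription factors keeps the genes of that state on. OVOL2 is a zinc finger repressor that keeps EMT genes such as Zeb2 off. GRHL2 activates junction genes, EHF and ELF3 are epithelial ETS factors, ESRP1 and ESRP2 direct epithelial splicing, and EpCAM is a cell surface adhesion protein. In the epithelial-to-mesenchymal transition (EMT), ZEB and SNAI repressors bind E-box motifs near epithelial genes and switch them off, while microRNAs of the miR-200 family hold ZEB mRNAs low. β-cells, like the duct and exocrine cells, are epithelial, whereas the islet's endothelial cells, stellate cells and macrophages are not.

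The transgene raises miR-7a, whose mature sequence is shown first because it is the agent of the study, followed by miR-200b, which targets Zeb2, and miR-200a, which carries the other seed of that family. The sequences are from RefSeq (GRCm38.p6), and capitals mark the seed, bases 2 to 8.
mmu-miR-7a-5p: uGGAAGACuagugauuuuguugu
mmu-miR-200b-3p: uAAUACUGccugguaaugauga
mmu-miR-200a-3p: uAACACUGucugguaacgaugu
The miR-200b seed is shared by miR-200c and miR-429, and the miR-200a seed by miR-141.

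The match to bases 2 to 8 of miR-7 is GTCTTCC. In the longest annotated 3′ UTR of each gene (mm9), it occurred in 0 of the 10 genes. The other common form, a match to bases 2 to 7 followed by A (TCTTCCA), occurred once in Zeb2 and once in Grhl2 and not in the other 8. In Ovol2 the 3′ UTR is 428 bases long, and 4.39% of the 1754 annotated 3′ UTRs between 0.8 and 1.2 times that length hold GTCTTCC. In Zeb2 the 3′ UTR is 4939 bases long, and 34.8% of 771 such UTRs hold it. The form TCTTCCA is held by 46.0% of these 771 UTRs, and by 29.8% of the 2197 UTRs of like length to that of Grhl2. A match is a description of letters and not a site of action, and its absence from these windows says nothing about other regions. The single miR-7 match in Zeb2 lies at chr2:44840977-44841006 on the minus strand and the match in Grhl2 at chr15:37290767-37290796 on the plus strand, shown with the match in capitals.
Zeb2, miR-7: gagctgcataaTCTTCCAactccagggaag
Grhl2, miR-7: cttccttcaacTCTTCCActtgctccctat

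Matches to the miR-200 seeds were most numerous in Zeb2. Its 3′ UTR held 5 matches to the miR-200b seed (CAGTATT) and 4 to the miR-200a seed (CAGTGTT), while 38.4% and 52.9% of UTRs of like length held at least 1. Snai1 held 1 match to the miR-200b seed (6.62% of UTRs of like length hold it). Snai2 held 1 of each kind (13.2% for miR-200b and 14.3% for miR-200a), and Grhl2 held 1 match to the miR-200a seed (34.6%). The remaining 6 genes held none. The first 2 miR-200b matches of Zeb2, at chr2:44843682-44843711 and chr2:44843617-44843646 (mm9, minus strand), are shown because they lie 393 and 458 bases into the UTR.
Zeb2, miR-200b, first: ctaccatacatCAGTATTttattattatta
Zeb2, miR-200b, second: ctacagtgcatCAGTATTacgattcctcaa
The counts of the miR-200 hairpin genes could not be tested: 0 of 5 passed the filter on low counts. Summed over 3 libraries, Mir200c had 17 reads in Wt and 5 in Tg7 islets at 2w, Mir200a had 8 and 28, and Mir429 had none in any of the 12 libraries. Such libraries read hairpin precursors poorly and say nothing of the mature miRNAs.

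Of the 10 genes, 5 had a promoter entry in the RefSeq table (GRCm38.p6), namely Ovol2, Zeb2, Snai1, Epcam and Elf3. Windows from 250 bases before to 50 after each start were searched on both strands for the E-box CAGGTG bound by ZEB and SNAI factors, the OVO core CCGTTA and the grainyhead core CCGGTT, motifs that share no position in these windows. Among all 32851 windows of the table, 20.2% held the E-box, 2.76% the OVO core and 6.83% the grainyhead core. Epcam held 2 E-boxes, starting 187 and 19 bases before the transcription start, Snai1 held 1 and Elf3 held 1 E-box and 1 grainyhead core. The Ovol2 window and the 4 Zeb2 windows held none of the 3 motifs. The bases before the start of Ovol2 (chr2:144331363-144331612, minus strand), the gene that changed most, and of Epcam (chr17:87635729-87635978, plus strand), with E-boxes in capitals, are as follows.
Ovol2: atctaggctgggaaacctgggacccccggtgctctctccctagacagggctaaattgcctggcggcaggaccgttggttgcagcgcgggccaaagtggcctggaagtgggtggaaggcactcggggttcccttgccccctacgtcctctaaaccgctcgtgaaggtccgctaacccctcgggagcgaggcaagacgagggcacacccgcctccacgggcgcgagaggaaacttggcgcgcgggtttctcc
Epcam: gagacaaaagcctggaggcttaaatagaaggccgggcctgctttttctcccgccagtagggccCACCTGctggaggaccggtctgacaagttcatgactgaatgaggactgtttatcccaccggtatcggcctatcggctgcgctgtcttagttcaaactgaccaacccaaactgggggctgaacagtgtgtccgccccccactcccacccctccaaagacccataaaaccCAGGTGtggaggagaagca

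The libraries held between 11610697 and 17515758 gene reads. Ins1 and Ins2 together took 10.1% to 15.4% of them in 2w Wt, 1.84% to 4.09% in 2w Tg7, 14.8% to 29.99% in 12w Wt and 8.08% to 8.24% in 12w Tg7 islets. Counts were scaled with TMM factors and are given as CPM, the count relative to the scaled library total. Without these factors the median gene moved up by 0.17 at 2w and 0.44 at 12w on the log2 scale. Of the 8 β-cell markers, 7 fell at 2w and 6 at 12w, and none rose, against 4.55% and 11.2% of all genes lower. All 10 genes passed the filter on low counts, Grhl2 only through its Tg7 libraries and Ovol2 only through its Wt libraries. In all, 15961 genes were tested.

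At 2w, 4 of the 10 genes passed an adjusted p of 0.05 (edgeR quasi-likelihood test, Benjamini-Hochberg over all genes), Ovol2, Esrp1 and Esrp2 lower and Ehf higher in Tg7 islets. Among all genes tested, 4.55% were called lower and 6.07% higher. At 12w, 5 passed, with Ovol2, Esrp1, Esrp2 and Ehf lower and Snai1 higher, against 11.2% of all genes lower and 12.5% higher. Of all calls, 57.2% were upward at 2w and 52.7% at 12w with TMM, and 84.0% and 93.5% with library size alone (64.7% at 12w with upper-quartile factors), so directions here are relative to the TMM scale. With library size alone the 10 genes themselves had 4 higher (Grhl2, Zeb2, Snai1 and Snai2) and 2 lower (Ovol2 and Esrp1) at 12w, and 2 higher (Ehf and Grhl2) and 3 lower at 2w. With TMM, Grhl2, Elf3, Epcam, Zeb2 and Snai2 passed at neither age.

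**Figure D1:**
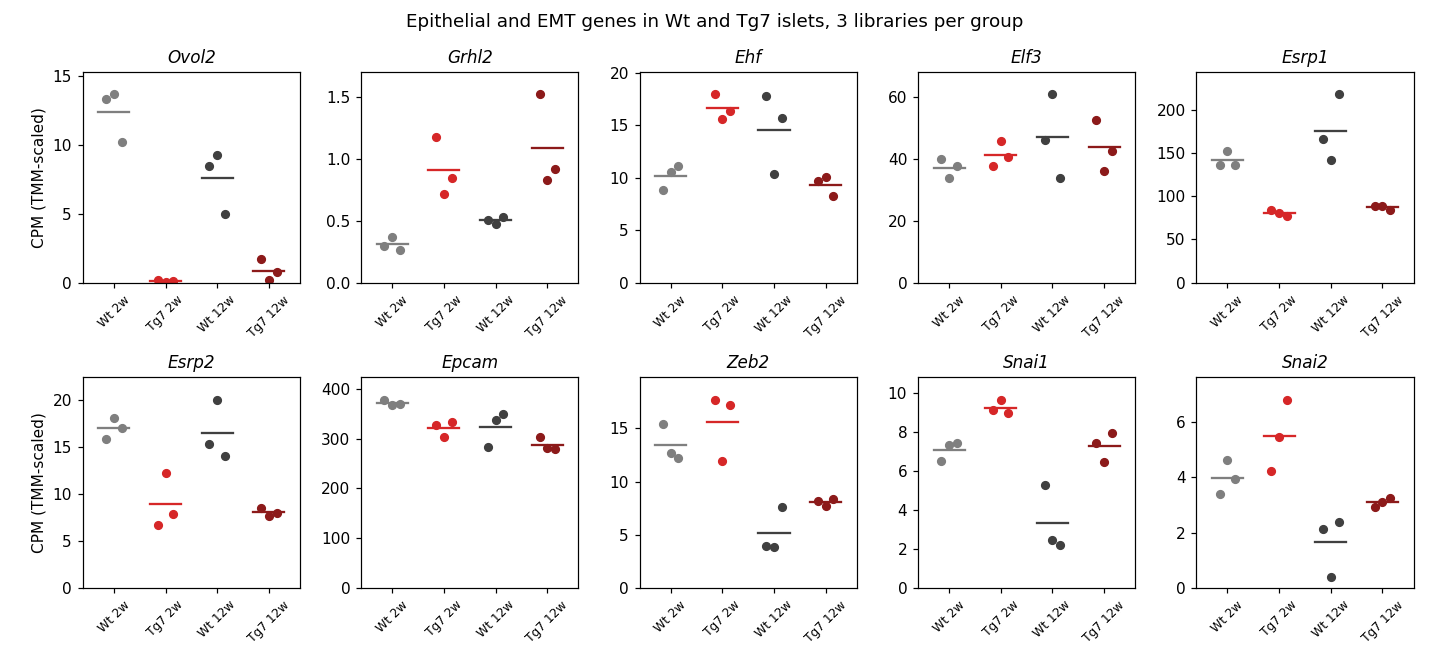
TMM-scaled CPM of the 10 genes (y axis, linear, from 0, a separate scale per gene) in each library of the 4 groups; points are libraries and lines are group means. Ovol2 lay between 5.0 and 13.6 CPM in Wt and between 0.0650 and 1.69 CPM in Tg7 libraries, whereas Elf3 overlapped between genotypes at both ages.

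Ovol2 (chr2:144130911-144157882, mm9, minus strand) was nearly lost from Tg7 islets. At 2w the Wt libraries held 224, 185 and 191 reads, or 13.3, 13.6 and 10.2 CPM. The Tg7 libraries held 4, 1 and 2 reads, or 0.213, 0.0650 and 0.0994 CPM. The groups were far apart, with the highest Tg7 library below every Wt library. The log2 fold change was −6.50 ± 0.65 (SE, adjusted p = 3.813e-05 by edgeR), the second lowest value among 15961 genes. Ovol2 passed the filter on low counts only through its Wt libraries, so a lower Tg7 level is in part built into its being tested. With so few reads in Tg7 islets, the ratio of summed, scaled counts gives the size better: Wt was 94.5 times Tg7, with an exact 95% counting interval of 45.6 to 236. This interval covers counting error only.

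At 12w Ovol2 was again low in Tg7 islets, but less uniformly. The Wt libraries 1, 2 and 4 held 8.45, 9.21 and 5.0 CPM and the Tg7 libraries 1.69, 0.166 and 0.744 CPM, from 30, 3 and 13 reads. The groups did not overlap, while the Tg7 libraries differed among themselves by more than at 2w. The log2 fold change was −3.11 ± 0.52 (adjusted p = 0.0007089, edgeR), and Wt was 8.41 times Tg7 (counting interval 6.13 to 11.8). The call held at both ages with each of the 12 libraries left out in turn, with values from −7.07 to −6.25 at 2w and −4.02 to −2.62 at 12w.

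Between 2w and 12w, Ovol2 rose in Tg7 islets by 2.68 ± 0.73 on the log2 scale (adjusted p = 0.02763, edgeR), from 7 summed reads to 46. Leaving out Tg7 library 1 of 12w, the highest, gave 1.75, and the call was lost (adjusted p = 0.1724, edgeR), as it was without Tg7 library 3 of 12w (2.78) or Tg7 libraries 2 (2.43) and 3 (2.52) of 2w. In Wt islets the change with age was −0.72 ± 0.44 (adjusted p = 0.2918, edgeR). The difference of the Tg7 effect between ages was 3.39 ± 0.86 (adjusted p = 0.07838, edgeR), past the threshold with DESeq2, with library size alone and without a filter on low counts, and also without Tg7 library 2 of 12w.

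The 5′ end of Ovol2 is overlapped by 1700108N11Rik on the other strand, which had 32 and 5 summed reads in Wt and Tg7 at 2w and 36 and 14 at 12w. No source used here states whether the counting used strand, so reads of both cannot be told apart in the overlap. Within 250000 bases of Ovol2 on either side, Sec23b, a vesicle coat gene, was lower at 2w (−0.91) and 12w (−0.61), and so was Csrp2bp (−0.54 and −0.49). The other neighbours that could be tested, such as Snx5 with −0.20 and −0.35, passed at neither age. Sec23b and Csrp2bp were singled out after their values were seen.

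Across the 12 libraries, the genes whose centred log2 CPM lay closest to Ovol2 were Olfm4, G6pc2 and Plk3, with root-mean-square differences of 0.98, 1.03 and 1.07, where the median gene had 2.45. G6pc2, a β-cell glucose-6-phosphatase subunit, averaged 1183 CPM in Wt and 100.5 CPM in Tg7 at 2w, and 2572 and 244.4 CPM at 12w. Olfm4, a secreted glycoprotein, averaged 33.4 and 0.815 CPM at 2w and 39.3 and 1.16 CPM at 12w. Plk3, a stress-responsive kinase, averaged 98.1 and 9.65 CPM at 2w and 99.2 and 13.5 CPM at 12w. These genes were chosen for their likeness to Ovol2, so their pattern is a description.

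The ETS factor Ehf (chr2:103103590-103143435, minus strand) moved in opposite directions at the 2 ages. At 2w it was at 8.84, 10.5 and 11.1 CPM in Wt and at 17.9, 15.6 and 16.4 CPM in Tg7 islets. All Tg7 libraries lay above all Wt libraries, and the log2 fold change was 0.71 ± 0.20 (adjusted p = 0.03605, edgeR). At 12w the Wt libraries held 17.8, 10.3 and 15.7 CPM and the Tg7 libraries 9.64, 10.1 and 8.24 CPM. Here every Tg7 library lay below every Wt library, narrowly so for Wt library 2, and the log2 fold change was −0.64 ± 0.20 (adjusted p = 0.03377, edgeR). In Tg7 islets Ehf fell with age by 0.84 on the log2 scale (adjusted p = 0.013, edgeR), and the difference of the Tg7 effect between ages was −1.35 ± 0.28 (adjusted p = 0.03465, edgeR). Ehf was the only one of the 10 genes to pass this last test, for which 0.307% of all genes were called lower and 0.871% higher (73.9% of calls upward, 93.1% with library size alone, 61.8% with DESeq2).

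The calls of Ehf were close to the threshold. Each kept its sign with any library left out, but the 2w call was lost in 8 of 12 such fits (0.62 to 0.78), among them any 2w library. The 12w call was lost in 5 of 12 (values of all 12 from −0.84 to −0.51), without Wt libraries 1 or 4 or any Tg7 library of that age. The 12w call was also lost with library size alone (−0.19, adjusted p = 0.5217, edgeR), upper-quartile factors (−0.55, adjusted p = 0.06576, edgeR) and the 12w libraries alone (−0.67, adjusted p = 0.08849, edgeR). Ductal markers, whose cells also express Ehf, summed to 544 to 571 CPM in Wt and 486 to 607 CPM in Tg7 at 2w, and to 410 to 595 and 705 to 994 CPM at 12w. Of the 7 ductal markers, 6 were tested, and 0 passed at 2w by edgeR (2 at an unadjusted p under 0.05, 1 by DESeq2). Spp1 and Muc1 were higher at 12w, against 12.5% of all genes. Values above 0 were seen for 4 of the 6 at 2w and 5 at 12w. Krt19 had −0.42 and −0.67 and did not pass (adjusted p = 0.5325 and 0.2859, edgeR). The sums rest largely on Krt7 (356.8 CPM in Wt and 440.9 CPM in Tg7 at 12w) and Spp1 (129.2 and 326.3 CPM). The part of ductal cells in the Ehf values was not tested.

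Elf3 (chr1:137150151-137155049, minus strand), the other ETS factor, passed in none of the 5 comparisons. It was at 40.1, 34.0 and 37.7 CPM in 2w Wt and 37.6, 46.0 and 40.7 CPM in 2w Tg7 islets. The 12w libraries held 46.3, 60.9 and 33.9 CPM in Wt and 52.6, 36.1 and 42.6 CPM in Tg7 islets. The groups overlapped at both ages, with log2 fold changes of 0.15 ± 0.19 and −0.10 ± 0.19 (adjusted p = 0.6611 and 0.7566, edgeR), and the sign at 12w turned with library size alone. Its change with age in Wt islets was past the threshold without Wt library 4 of 12w (0.52, adjusted p = 0.03499, edgeR).

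Grhl2 (chr15:37162791-37293324, plus strand), the grainyhead factor, was barely detected. It had 5 reads in each 2w Wt library against 22, 11 and 17 in Tg7, and 4, 6 and 8 in 12w Wt against 27, 15 and 16 in Tg7. All Tg7 libraries lay above all Wt libraries of their age, which is in part built into its being tested, since it passed the filter on low counts only through its Tg7 libraries. The log2 fold changes of 1.55 ± 0.51 and 1.10 ± 0.50 did not pass (adjusted p = 0.06838 and 0.1355, edgeR). With library size alone both passed (1.72 with adjusted p = 0.04696, and 1.52 with adjusted p = 0.03422, edgeR). Gm16136, a transcript on the other strand at its 5′ end, had 7 reads in Wt and 22 in Tg7 islets at 2w, so part of these few reads cannot be assigned to a strand.

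The splicing regulators fell together at both ages. Esrp1 (chr4:11259080-11313930, minus strand) was at 135.8, 152.9 and 135.9 CPM in 2w Wt and 83.6, 80.7 and 77.4 CPM in 2w Tg7 islets. Its 12w levels were 166.8, 142.3 and 217.9 CPM in Wt and 88.3, 89.3 and 84.1 CPM in Tg7 islets. No Tg7 library came near a Wt library, and the log2 fold changes were −0.81 ± 0.14 (adjusted p = 0.002428, edgeR) and −1.01 ± 0.14 (adjusted p = 0.0001915, edgeR). Both calls held with every library left out, from −0.85 to −0.76 and from −1.14 to −0.82.

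Esrp2 (chr8:108654219-108660874, minus strand), a paralog of Esrp1, was at 15.9, 18.1 and 17.0 CPM in 2w Wt and 6.67, 12.2 and 7.85 CPM in 2w Tg7 islets. Its 12w levels were 15.4, 20.1 and 14.1 CPM in Wt and 8.51, 7.69 and 7.95 CPM in Tg7 islets. Wt and Tg7 did not overlap at either age, though Tg7 library 2 of 2w stood above the other Tg7 libraries. The log2 fold changes were −0.94 ± 0.22 (adjusted p = 0.0143, edgeR) and −1.04 ± 0.22 (adjusted p = 0.004025, edgeR). The 2w call was lost without Wt library 2 (−0.89), Wt library 3 (−0.94) or Tg7 library 3 (−0.87), with adjusted p between 0.05262 and 0.05746 (edgeR). The 12w call was lost with library size alone (−0.59, adjusted p = 0.05259, edgeR). Esrp2 overlaps Nfatc3 and 1810019D21Rik on the other strand, and their reads cannot be told apart there. The ratio of Esrp1 to Esrp2 per length averaged 5.73 ± 0.20 in Wt and 6.66 ± 2.04 in Tg7 islets at 2w, and 7.67 ± 2.9 and 7.47 ± 0.46 at 12w (SD, n = 3). The libraries of Wt (5.50 to 5.88) and Tg7 (4.55 to 8.63) overlapped at 2w, as did those at 12w (4.88 to 10.7 and 7.14 to 7.99).

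Epcam (chr17:88035319-88050446, plus strand) had the highest level per length of the 10 genes in every group. It was at 378.3, 367.0 and 370.4 CPM in 2w Wt and 328.4, 302.8 and 333.1 CPM in 2w Tg7 islets. The 12w libraries held 282.8, 337.0 and 349.0 CPM in Wt and 302.8, 281.8 and 278.2 CPM in Tg7 islets. Tg7 lay below Wt at 2w and overlapped with it at 12w, and neither difference passed (−0.21 ± 0.11 with adjusted p = 0.251, and −0.17 ± 0.11 with adjusted p = 0.3193, edgeR). With library size alone the 12w value was 0.26.

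**Figure D2:**
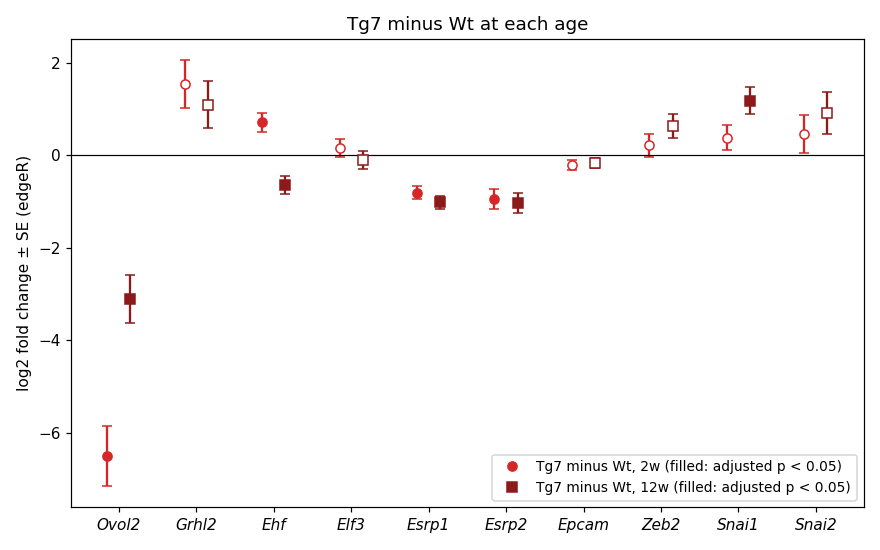
Log2 fold change of Tg7 minus Wt (y axis, points ± SE from edgeR, 3 libraries per group) for each gene at 2w (circles) and 12w (squares); filled symbols passed an adjusted p of 0.05. Ovol2 stands at −6.50 and −3.11, Ehf changes sign between ages, and the 3 EMT factors lie above 0 with only Snai1 at 12w filled.

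Zeb2 (chr2:44839154-44972915, minus strand) fell with age in both genotypes, while its 12w difference between genotypes passed or missed the threshold depending on the scaling and on 1 library. At 2w it was at 15.4, 12.7 and 12.2 CPM in Wt and 17.7, 12.0 and 17.2 CPM in Tg7 islets, and the groups overlapped. Gm13476, on the other strand within Zeb2, had 21 and 44 summed reads in Wt and Tg7 at 2w and 14 and 10 at 12w, and reads of both cannot be told apart in the overlap. At 12w Zeb2 was at 3.91, 3.89 and 7.60 CPM in Wt and 8.18, 7.75 and 8.41 CPM in Tg7 islets. The 12w groups were separated by a small gap, since Wt library 4 stood above the other Wt libraries. From 2w to 12w Zeb2 fell in Wt islets by 1.37 on the log2 scale (SE 0.26, adjusted p = 0.002998, edgeR) and in Tg7 islets by 0.95 (SE 0.25, adjusted p = 0.02144, edgeR). The difference between these 2 changes was 0.42 ± 0.36 (adjusted p = 0.6534, edgeR). The fall in Tg7 islets was lost in 5 of 12 fits with a library left out (Tg7 libraries 1 and 3 of 2w and any Tg7 library of 12w), at values from −0.97 to −0.86.

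Tg7 minus Wt for Zeb2 was 0.22 ± 0.24 at 2w (adjusted p = 0.6145, edgeR) and 0.64 ± 0.26 at 12w (adjusted p = 0.09387, edgeR). Without Wt library 4 the 12w value was 1.06 and passed (adjusted p = 0.004399, edgeR), and it also passed with upper-quartile factors (0.75) and library size alone (1.05). In that Wt library the endothelial markers summed to 481.4 CPM and the stellate and fibroblast markers to 147.3 CPM, the highest sums of the 12w Wt libraries. The Schwann cell (10.7 CPM), macrophage (93.5 CPM) and β-cell markers (195700 CPM) had their lowest sums of the 12w Wt libraries there. The part of these cells in the Zeb2 values was not tested.

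Snai1 (chr2:167363695-167368314, plus strand), the Snail repressor, was at 6.53, 7.37 and 7.45 CPM in 2w Wt and 9.12, 9.68 and 8.99 CPM in 2w Tg7 islets. These ranges did not overlap, but the log2 fold change of 0.38 ± 0.27 did not pass (adjusted p = 0.3965, edgeR). At 12w it was at 5.29, 2.46 and 2.2 CPM in Wt and 7.44, 6.47 and 7.95 CPM in Tg7 islets, again without overlap. The 12w log2 fold change was 1.18 ± 0.29 (adjusted p = 0.009455, edgeR). The call held with every library left out (0.95 to 1.62), while the fit of the 12w libraries alone gave 1.14 (adjusted p = 0.05659, edgeR). With age Snai1 fell in Wt islets by 1.15 on the log2 scale (adjusted p = 0.01612, edgeR), a call lost without Wt libraries 2 or 3 of 2w or Wt library 2 of 12w (−1.12, −1.11 and −0.98). In Tg7 islets its change with age was −0.35 ± 0.27 (adjusted p = 0.4348, edgeR), and the difference of the Tg7 effect between ages was 0.80 ± 0.39 (adjusted p = 0.3781, edgeR).

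Snai2 (chr16:14705945-14709488, plus strand), the Slug repressor, was the least abundant of the EMT factors in CPM. It was at 3.38, 4.64 and 3.94 CPM in 2w Wt and 4.22, 5.46 and 6.81 CPM in 2w Tg7 islets, and the ranges overlapped. At 12w it was at 2.14, 0.397 and 2.40 CPM in Wt and 2.93, 3.10 and 3.26 CPM in Tg7 islets, with all Tg7 libraries higher. Wt library 2 stood apart with 5 reads. The log2 fold changes were 0.46 ± 0.42 and 0.92 ± 0.45 (adjusted p = 0.5176 and 0.1658, edgeR), and the change with age in Wt islets was −1.28 ± 0.45 (adjusted p = 0.07037, edgeR). The latter passed with DESeq2, library size alone and no filter on low counts, and without Wt library 4 of 12w (−1.76).

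Of the 10 genes, 2 fell with age in Wt islets (Zeb2 and Snai1) and none rose, against 7.91% and 7.9% of all genes. In Tg7 islets 1 rose (Ovol2) and 2 fell (Ehf and Zeb2), against 7.02% and 6.01%. Without Wt library 4 of 12w, 4 of the 10 passed in the Wt comparison, and without Tg7 library 3 of 12w, 0 passed in the Tg7 comparison by edgeR (3 at an unadjusted p under 0.05). With library size alone 7.89% of the calls of all genes with age in Wt and 37.8% of those in Tg7 islets were upward, while TMM gave 1261 higher and 1263 lower in Wt and 53.9% upward in Tg7 islets.

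Stromal and vascular cells express EMT factors, so markers of those cells are given beside Zeb2, Snai1 and Snai2. None of these 3 factors passed at 2w, and Snai1 alone passed at 12w. At 2w endothelial markers summed to 833 to 1055 CPM in Wt and 932 to 989 CPM in Tg7 islets, and at 12w to 351 to 481 and 750 to 809 CPM. None of 7 endothelial markers passed at 2w by edgeR (1 at an unadjusted p under 0.05, 0 by DESeq2), all 7 were higher in Tg7 at 12w, and all 7 fell with age in Wt. Stellate and fibroblast markers summed to 316 to 458 and 503 to 661 CPM at 2w and to 85.7 to 147 and 380 to 403 CPM at 12w. Of these 8, 6 were higher in Tg7 at 2w and 7 at 12w, and 5 fell with age in Wt. Of 6 Schwann cell markers, 3 were higher at 12w, and of 8 macrophage markers 1 was higher at 2w and 1 lower at 12w. Of all genes tested, 6.07% were called higher at 2w and 12.5% at 12w, 11.2% lower at 12w, and 7.91% fell with age in Wt. All markers of these 4 lists had reads in every group. The part of these cells in the values of Zeb2, Snai1 and Snai2 was not tested. Acinar markers summed to at most 13.9 CPM in any library.

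The genes closest to Zeb2 across the 12 libraries were Itga1, Axl and Arhgap31, with root-mean-square differences of 0.17, 0.23 and 0.23 in centred log2 CPM, where the median gene had 0.80. Itga1, a collagen-binding integrin subunit, averaged 18.0 and 19.2 CPM in Wt and Tg7 at 2w and 6.31 and 10.2 CPM at 12w. Axl, a receptor tyrosine kinase, averaged 23.3 and 28.7 CPM at 2w and 9.71 and 16.2 CPM at 12w. Arhgap31, a GTPase-activating protein, averaged 38.6 and 39.4 CPM at 2w and 14.2 and 27.5 CPM at 12w. They too were chosen for their likeness, so the shared pattern is no further evidence.

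Because reads of Ovol2 and Zeb2 come from the same library, their ratio does not depend on any scaling factor. Reads of Ovol2 per read of Zeb2 were 0.862, 1.07 and 0.834 in 2w Wt libraries and 0.0121, 0.00543 and 0.00576 in 2w Tg7 libraries. At 12w they were 2.16, 2.37 and 0.658 in Wt and 0.207, 0.0214 and 0.0884 in Tg7 libraries. All Tg7 libraries lay below all Wt libraries, at 2w by a wider gap. On the log2 scale the means were −0.13 ± 0.19, −7.11 ± 0.64, 0.58 ± 1.03 and −3.77 ± 1.65 (SD, n = 3) for 2w Wt, 2w Tg7, 12w Wt and 12w Tg7. These values describe the libraries and carry no test.

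**Figure D3:**
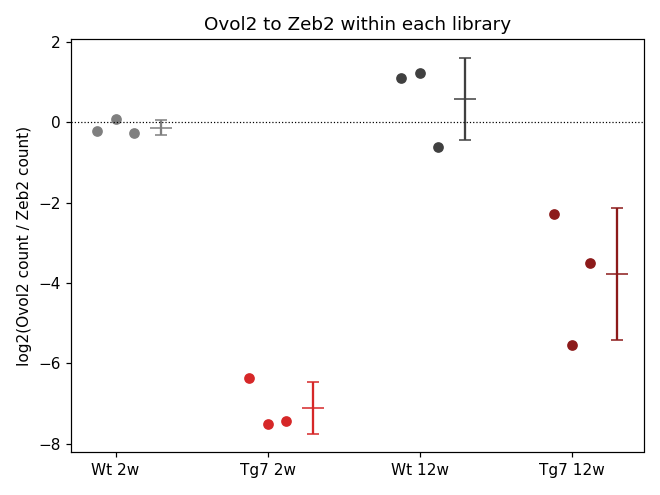
Log2 ratio of Ovol2 reads to Zeb2 reads (y axis) in each library (points) of the 4 groups, with the mean ± SD of 3 libraries beside them. The ratio is near 0 in 2w Wt libraries, between −7.52 and −6.38 in 2w Tg7 libraries and between −5.54 and −2.27 in 12w Tg7 libraries.

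Per kilobase of exon, the order of levels in 2w Wt islets was Epcam (182 ± 2.8 CPM per kb, SD, n = 3), Esrp1 (22.5 ± 1.6), Elf3 (18.6 ± 1.5), Ovol2 (5.85 ± 0.90), Snai1, Esrp2, Snai2, Ehf, Zeb2 (0.875 ± 0.113) and Grhl2 (0.0564 ± 0.0095). Only Snai1 with Esrp2 and Snai2 with Ehf were neighbours whose libraries overlapped. In 2w Tg7 islets Ovol2 took the last place (0.0596 ± 0.0368 CPM per kb) below Grhl2 (0.166 ± 0.043), and Elf3 (20.7 ± 2.1) stood above Esrp1 (12.8 ± 0.5). In 12w Wt islets Ovol2 was in place 5 (3.57 ± 1.06 CPM per kb), with libraries overlapping those of Esrp2 above it and Ehf below it. In 12w Tg7 islets it was in place 9 (0.410 ± 0.365 CPM per kb), overlapping with Zeb2 above it and Grhl2 below it.

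Of 10 listed relatives of the epithelial factors 6 could be tested, and 0 passed at 2w by edgeR (1 at an unadjusted p under 0.05, 0 by DESeq2), with a median log2 fold change of 0.26. At 12w Grhl1, a grainyhead factor, was lower (−0.53 ± 0.17, adjusted p = 0.03671, edgeR), and the median of the list was −0.35. With library size alone that median was 0.0951, Grhl1 did not pass and Klf4 was higher. Ovol1, the paralog of Ovol2, had 15 and 37 summed reads in 2w Wt and Tg7 and 23 and 13 at 12w, and passed at neither age. Grhl3 had 25 and 59 reads at 2w and 8 and 13 at 12w. Klf4 had 1179 and 1642 reads at 2w and 698 and 1091 at 12w, and Klf5 had 500 and 622, and 412 and 551. These reads are not scaled to library size. After TMM scaling, the 12w ratio of Tg7 to Wt was 1.08 for Grhl3, 1.04 for Klf4 and 0.892 for Klf5, and none of these passed. Ovol3, Elf5, Spdef and Trp63 had at most 9 reads in any group.

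Among the other EMT factors, 9 of 12 could be tested, and 0 passed at 2w by edgeR (2 at an unadjusted p under 0.05, 0 by DESeq2), with a median of 0.36. At 12w, against 12.5% of all genes higher, 4 of them were higher in Tg7 islets and none lower (median 0.88). These were Prrx1, a mesenchymal homeobox factor, with 53 summed reads in Wt and 326 in Tg7 (2.09 ± 0.32, adjusted p = 0.0003794, edgeR), Foxc1 with 32 and 121 (1.27 ± 0.42), Foxc2 with 45 and 154 (1.19 ± 0.39) and the E protein Tcf3 with 1348 and 2866 (0.55 ± 0.13). Without Wt library 2 or any Tg7 library of 12w, or without Wt library 2 of 2w, 2 of the 4 calls remained in number. Twist1 had 16 and 33 reads at 2w and 2 and 12 at 12w, and Twist2 had 7 and 45, and 3 and 9. Tcf4 had 5680 and 6078 reads at 2w and 2743 and 4671 at 12w, Klf8 had 277 and 393, and 125 and 246, and Sox4 had 4012 and 4734, and 2477 and 3162. These reads are not scaled to library size. After scaling, the 12w ratio of Tg7 to Wt was 1.135 for Tcf4, 1.31 for Klf8 and 0.851 for Sox4, and none of these passed. Snai3 had at most 6 reads in any group.

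Zeb1, the paralog of Zeb2, was listed at 0 in all 12 libraries, as was Gsc. Since Zeb2 and markers of non-epithelial cells such as Pecam1 had reads in every library, no level of Zeb1 was read from this entry.

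Of 6 other splicing factors that act in EMT, Mbnl1, a splicing factor of differentiation, was higher at 2w (0.58 ± 0.16, adjusted p = 0.03225, edgeR), and 0 passed at 12w by edgeR (1 at an unadjusted p under 0.05, 1 by DESeq2, 3 with library size alone), with medians of −0.14 and −0.0145. Without any 2w library other than Tg7 library 2, or without Tg7 libraries 2 or 3 of 12w, 0 of the 6 passed at 2w. Rbm47, Rbfox2, Qki, Ptbp1 and Srsf1 ranged from −0.29 to 0.08 at 2w and from −0.37 to 0.22 at 12w.

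Epithelial genes known as targets of ZEB and SNAI repressors were lower in part. Of 21, 3 were lower at 2w and none higher (median −0.17), against 4.55% of all genes lower. At 12w 9 were lower and none higher (median −0.42), against 11.2% of all genes lower. This depended on the scaling at 12w, since with library size alone 4 were higher and 3 lower (median 0.0383), and with upper-quartile factors 2 were higher and 7 lower. The desmosomal gene Dsp had the lowest value of those called at 2w (−1.21 ± 0.17, adjusted p = 0.0006179, edgeR), before the tight junction genes Cldn7 (−0.62 ± 0.18, adjusted p = 0.03971, edgeR) and Cldn3 (−0.55 ± 0.17, adjusted p = 0.04995, edgeR). At 12w the lowest of those called were Cldn3 (−1.45 ± 0.17), Dsp (−1.22 ± 0.17) and Cldn4 (−1.05 ± 0.17). The remaining ones called at 12w were Krt8, Cldn7, Crb3, Ocln, St14 and Patj. E-cadherin (Cdh1) had values of −0.39 ± 0.15 and −0.42 ± 0.15 and did not pass (adjusted p = 0.1018 and 0.05291, edgeR). The 2w count ranged from 1 to 8 with a library left out, 8 being without Wt library 4 of 12w. From 2w to 12w in Wt islets, 7 of the 21 rose on the TMM scale and none fell, against 7.9% and 7.91% of all genes. Cldn3 (0.75) and Cldn4 (0.85) were among those that rose, and Dsp (0.07) was not. The part of these changes with age in the 12w difference between genotypes was not tested.

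Of 8 mesenchymal genes, 5 passed at 2w and 5 at 12w, all upward, with medians of 0.58 and 1.51. Of all genes tested, 6.07% were called higher at 2w and 12.5% at 12w. At 2w the log2 fold change of Fn1 (fibronectin) was 1.99 ± 0.59, which rested on Tg7 library 1. That library held 194.2 CPM against 22.3 and 32.7 CPM in the other Tg7 libraries and 17.2 to 25.04 CPM in Wt libraries, and without it the value was 0.40 (adjusted p = 0.3667, edgeR). The macrophage and leukocyte genes Lyz2 and Ptprc, singled out after their values were seen, were also highest there, with 62.9 CPM against 8.25 and 13.2 CPM for Lyz2 and 22.4 CPM against 1.95 and 0.795 CPM for Ptprc. The other macrophage markers did not all follow among the 2w Tg7 libraries. Csf1r was highest there, Adgre1, Cd14 and C1qa were lowest there, and Cd68 and C1qb lay between. Lymphocyte markers summed to 27.6 CPM there against 3.64 and 6.56 CPM. The part of such cells was not tested. Mmp2 (a gelatinase) had 1.55 ± 0.45 and Vim (vimentin) 0.77 ± 0.23 at 2w. At 12w Mmp2 had 2.49 ± 0.60, Vim 1.62 ± 0.24 and Sparc, a matricellular protein, 1.56 ± 0.18. N-cadherin (Cdh2), which β-cells also express, had 0.38 ± 0.21 and 0.54 ± 0.21 and did not pass, nor did S100a4 (−0.40 ± 0.35 and 0.43 ± 0.36), Sparc at 2w or Fn1 at 12w. For Cdh2 this rested on Wt library 4 of 12w, with 218.3 CPM against 102.3 and 114.0 CPM in Wt libraries 1 and 2. Without that library Cdh2 passed at 2w (0.37, adjusted p = 0.007754, edgeR) and at 12w (0.96, adjusted p = 1.26e-05, edgeR). The 2w count fell to 1 without Wt libraries 2 or 3 or Tg7 library 1 of that age, or any Tg7 library of 12w. Stellate and fibroblast markers moved with these genes at the sums given above, and their part was not tested.

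**Figure D4:**
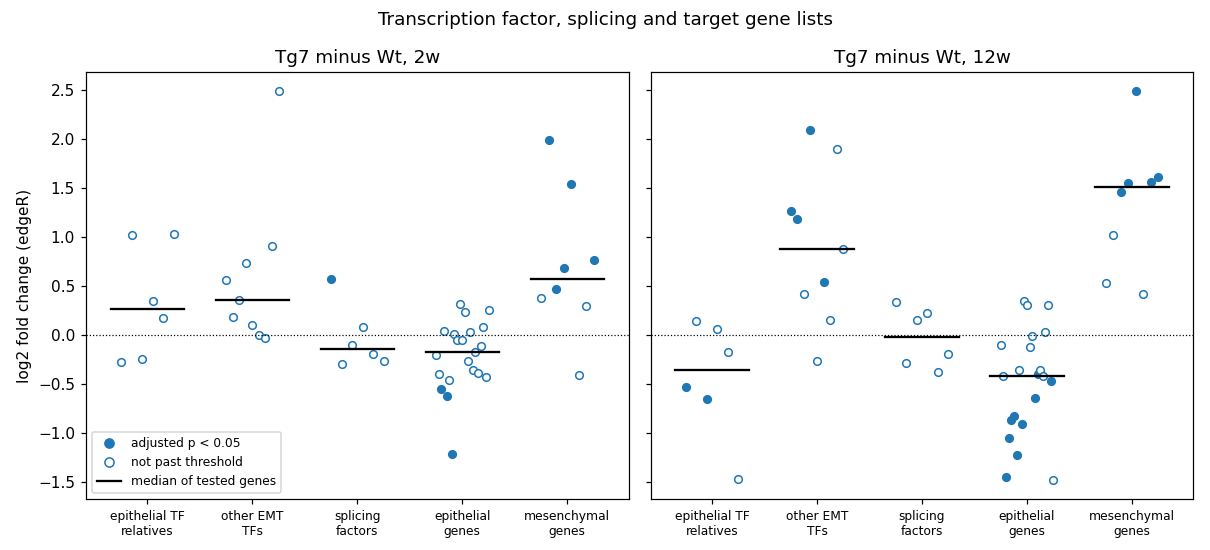
Log2 fold change of Tg7 minus Wt (y axis, edgeR) at 2w (left) and 12w (right) for the tested genes of 5 lists; each point is a gene, filled where the adjusted p was under 0.05, and bars are list medians. At 12w the median of the epithelial genes was −0.42 (0.0383 with library size alone) and that of the mesenchymal genes 1.51.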

How the data were processed

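The authors made paired-end libraries from total islet RNA, trimmed reads with Trimmomatic, aligned them to mm9 with TopHat2 2.0.11 and deposited raw counts per Ensembl gene from featureCounts, and no source read here states its version or its use of strand. The submitters' processing notes name bcl2fastq 2.20.0. No column was left out. Symbols came from the Ensembl annotation of mm9 (37205 of 37991 identifiers). Genes were filtered with filterByExpr (minimum count 10, total 15), scaled by TMM and fitted as 4 group means over 12 libraries in edgeR 4.0.16 (glmQLFit, glmQLFTest, R 4.3.3). The contrasts compared Tg7 with Wt at each age, 12w with 2w in each genotype, and the Tg7 effect between ages. The SE of a log2 fold change was its size over the square root of F. Counting intervals are exact 95% intervals. The fit was tested on simulated counts. Alternatives used DESeq2 1.42.0, other scalings, filters, samples and a block.

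The members and lists were chosen with earlier results of these data known. Besides the members, the text names from each list the 3 called genes with the largest absolute fold change at each age, the genes of the 2 transcription factor lists by their reads (1 result is not reported here), and the 3 genes closest to Ovol2 and to Zeb2 over the libraries. The remaining epithelial and splicing genes named, and the neighbours of Ovol2, were chosen after their values were seen. The authors' qPCR, single-cell and human data were not analysed here.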

Additional observations from a re-analysis of the deposited data

Results flagged for a closer look

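The Tg7 effect on Ehf differed between ages by −1.35 ± 0.28 on the log2 scale in a test of the difference itself (12w minus 2w, adjusted p = 0.03465 by edgeR). All 3 Tg7 libraries lay above the Wt libraries at 2w and all 3 below them at 12w. With a library left out the difference ranged from −1.55 to −1.22 and lost its call in 10 of 12 fits, and it was −1.06 with library size alone (adjusted p = 0.08816, edgeR).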

How the results depend on the processing

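Over the other scalings, tools, filters and samples, Ovol2 and Esrp1 kept their calls at both ages (Ovol2 −6.58 to −6.34 at 2w and −3.35 to −2.66 at 12w, Esrp1 −0.82 to −0.65 and −1.04 to −0.58). With library size alone the sign turned for Elf3 (0.35) and Epcam (0.26) at 12w, for Elf3 (−0.0696) and Esrp1 (−0.0733) with age in Wt, for Elf3 (−0.0403) and Esrp1 (−0.00407) with age in Tg7, and for the difference between ages of Elf3 (0.0294), Esrp1 (0.0692) and Esrp2 (0.19), none of them called in either fit. Library size alone gave 4 genes called with age in Wt. Each age fitted alone gave 3 genes called at 12w, without Ehf and Snai1, and 14 list genes at 2w. For the difference between ages, DESeq2 called 2 genes and the fit without a filter on low counts 2, Ovol2 being added in both. The cause of these changes was not tested.

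Libraries with the same number shared only a number: their deviations correlated at −0.0214, −0.167 and −0.0343 at 2w and −0.0894 and −0.0112 at 12w. With the replicate number as a block, 0 of the 10 genes passed for the difference between ages by edgeR (3 at an unadjusted p under 0.05), the calls of Snai1 (0.94) and Ehf (−0.55) at 12w and of Snai1 with age in Wt (−0.91) were lost, those of Zeb2 at 12w (1.03) and Snai2 with age in Wt (−1.71) were gained, and the signs of Esrp2 with age in Wt (0.0201) and of Esrp1 for the difference between ages (0.0170) turned.

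With each library left out in turn, the number of genes called ranged from 2 to 4 at 2w, 4 to 5 at 12w, 1 to 4 with age in Wt, 0 to 3 with age in Tg7 and 0 to 1 for the difference between ages, and list genes from 2 to 16 at 2w and 14 to 21 at 12w. Signs turned for values that were not called: Elf3 at 12w (−0.29 to 0.13), Esrp2 with age in Wt (−0.21 to 0.0602), Elf3 (−0.0751 to 0.20), Grhl2 (−0.0634 to 0.47) and Esrp2 (−0.32 to 0.15) with age in Tg7, and the difference between ages of Esrp2 (−0.25 to 0.20), Epcam (−0.0653 to 0.11) and Snai2 (−0.0216 to 0.94). Ovol2 in Tg7 and Grhl2 in Wt rest on few reads, which limits how precisely their fold changes can be given.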
